A study of Mus musculus with 6 samples.

Results

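The midbrain cells described here are the 188 cells that the authors' deposited annotation names Midbrain, out of 4301 annotated cells in their day 6 table and 16282 cells in the series. All cells came from neural tube organoids grown from 1 mouse embryonic stem cell line that carries the reporters Sox1::eGFP;Bra::mCherry, which mark expression of the neural gene Sox1 and the mesodermal gene Brachyury. Single cells were embedded in Matrigel, a basement membrane extract, kept until day 3 in N2B27 medium with bFGF and activin-A, and then kept in N2B27 alone until day 6. The day 6 table holds 1 library of organoids that had not elongated and 1 library of organoids that had elongated (the first of 2 batches), each made from pooled organoids dissociated with TrypLE. Of the midbrain cells, 102 of 2225 were in the non-elongated library (4.58%, exact binomial 95% interval 3.75 to 5.54) and 86 of 2076 in the elongated library (4.14%, 3.33 to 5.09). The 2 libraries share the line, the medium and the day and have the same genotype. With 1 library a condition there is no replicate check and no test, and the intervals given below cover counting error only. The library names in the annotation, NENT and SENT, were read as non-elongated and elongated from the sample titles, which do not explain the S.

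During development the midbrain forms in front of the hindbrain, and the border between them, the isthmus, acts as a signalling centre. Otx2, a homeodomain factor of the forebrain and midbrain, and Gbx2, a homeodomain factor of the anterior hindbrain, repress each other and so place the border. Around it Pax2 and Pax5, paired-box factors, and En1 and En2, engrailed-type homeodomain repressors, are switched on, Wnt1 is secreted on the midbrain side and Fgf8 on the hindbrain side. Hox genes are not used in front of this border.

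The promoters of En1, Otx2 and Gbx2 are shown because En1 was the gene furthest above the other cells and Gbx2 was lower in midbrain cells with Otx2 than in those without it (results further on). Each is the 250 bases before a transcription start in RefSeq (GRCm38.p6), written 5′ to 3′ on the gene's strand. Capitals mark TAATCC, a word that Otx-type homeodomains bind, with its reverse complement GGATTA, and TAATTA, a word bound by many homeodomains, which is its own reverse complement. The 3 windows are En1 at chr1:120602237-120602486 on the plus strand, Otx2 at chr14:48665110-48665359 on the minus strand, and Gbx2 at chr1:89931177-89931426 on the minus strand.
En1: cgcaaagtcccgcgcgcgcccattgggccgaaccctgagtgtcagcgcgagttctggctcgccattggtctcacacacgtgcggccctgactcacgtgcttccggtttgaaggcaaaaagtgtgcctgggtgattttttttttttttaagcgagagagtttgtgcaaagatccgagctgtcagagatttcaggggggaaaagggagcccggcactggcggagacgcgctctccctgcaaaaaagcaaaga
Otx2: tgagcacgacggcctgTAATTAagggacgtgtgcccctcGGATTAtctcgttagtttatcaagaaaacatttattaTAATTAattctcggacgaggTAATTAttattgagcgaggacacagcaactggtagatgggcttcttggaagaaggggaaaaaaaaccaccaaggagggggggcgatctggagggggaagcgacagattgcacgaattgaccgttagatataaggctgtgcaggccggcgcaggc
Gbx2: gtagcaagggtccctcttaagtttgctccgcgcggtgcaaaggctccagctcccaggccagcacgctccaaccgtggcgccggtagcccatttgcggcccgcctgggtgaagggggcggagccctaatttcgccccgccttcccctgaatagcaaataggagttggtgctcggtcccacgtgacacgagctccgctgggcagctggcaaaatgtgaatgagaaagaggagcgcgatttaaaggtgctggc
The Otx2 window, which was chosen of 4 for its words, held 1 TAATCC, written as GGATTA, and 3 TAATTA. The En1 and Gbx2 windows held neither word. TAATCC on either strand occurred in 2054 of 32851 RefSeq windows of this length (6.25%) and TAATTA in 1590 (4.84%). These counts describe the letters only.

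The non-elongated midbrain cells were the shallowest of all class sums, and the elongated ones lay within the range of the others. Its cells gave 2851986 UMIs (unique molecular identifiers, 1 per captured RNA molecule) in the non-elongated and 3163388 in the elongated library. The median was 26739 and 34717.5 UMIs per cell, where the medians of the 14 sums of 7 classes in 2 libraries ran from 26739 to 42151.5. The median share of mitochondrial UMIs in midbrain cells was 4.67% and 4.97%. Only 1 cell barcode occurred in both libraries, and it was not that of a midbrain cell.

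**Figure D1:**
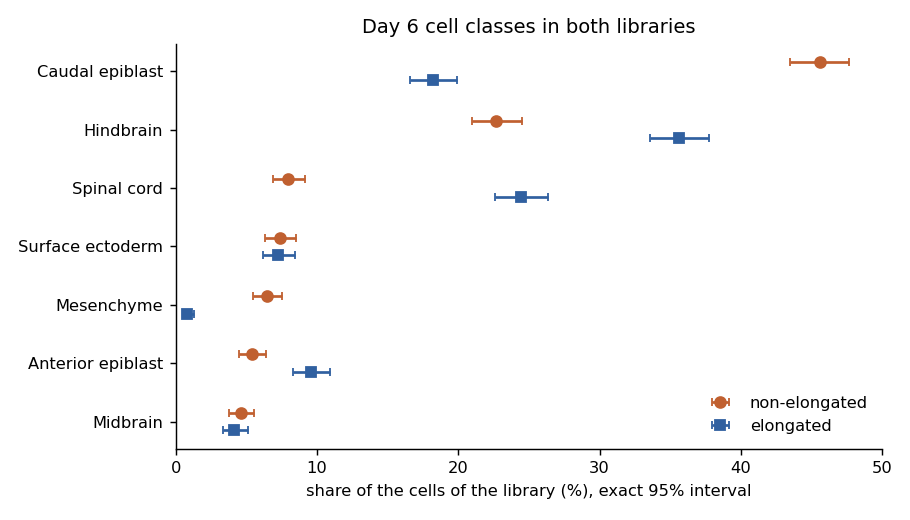
Share of each annotated class among the cells of the non-elongated (circles) and elongated (squares) day 6 libraries, in percent, with exact 95% binomial intervals. Midbrain cells made up 4.58% and 4.14%, while caudal epiblast cells made up 45.6% and 18.2%.

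Midbrain cells were a small class of nearly the same share in both libraries, as the plot of class shares shows. The other classes were not in balance. Caudal epiblast cells, the progenitors of the trunk, were 45.6% of the non-elongated and 18.2% of the elongated library, and spinal cord cells 7.96% and 24.4%. A comparison of midbrain cells with all other cells therefore sets them against a different mixture in each library. For that reason comparisons with 2 single classes, hindbrain and anterior epiblast, are given as well.

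The 4 marker genes of the label were all highest in the midbrain class. Levels below are CPM, counts per 1000000, the UMIs of a gene scaled to a total of 1000000 UMIs, summed over the cells of a class in a library. En1 stood at 215 CPM (612 UMIs, exact Poisson 95% interval 198 to 232) in non-elongated and 171 CPM (541 UMIs, 157 to 186) in elongated midbrain cells. In all other cells En1 was at 4.04 and 4.09 CPM. Anterior epiblast cells came next with 54.7 and 22.2 CPM, and hindbrain cells held 1.45 and 2.03 CPM. En1 was thus 53.1-fold and 41.8-fold higher in midbrain cells than in all other cells, and 3.93-fold and 7.72-fold higher than in anterior epiblast cells. The gene lies at chr1:120602418-120607992 on the plus strand of mm10.

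Otx2 was at 71.2 CPM (203 UMIs, 61.7 to 81.7) in non-elongated and 47.4 CPM (150 UMIs, 40.1 to 55.6) in elongated midbrain cells. It was at 30.6 and 25.2 CPM in anterior epiblast cells, at 17.3 and 7.70 CPM in mesenchyme cells, and at 0.290 and 0.714 CPM in hindbrain cells. The order midbrain, anterior epiblast, mesenchyme was the same in both libraries. Otx2 is at chr14:48657677-48673819 on the minus strand of mm10, and its exons overlap those of Otx2os1 on the opposite strand. Use of strand in counting is not given in the sources used here, so reads of the 2 genes cannot be told apart with certainty.

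Pax2 reached 66.6 CPM (190 UMIs, 57.5 to 76.8) and 58.5 CPM (185 UMIs, 50.4 to 67.5) in midbrain cells. It was at 34.0 and 24.6 CPM in anterior epiblast cells and at 6.50 and 6.92 CPM in hindbrain cells. Pax5 was at 29.8 CPM (85 UMIs, 23.8 to 36.9) and 31.0 CPM (98 UMIs, 25.2 to 37.8) in midbrain cells, against 14.3 and 11.0 CPM in anterior epiblast and 2.84 and 3.53 CPM in hindbrain cells. Both paired-box genes had the anterior epiblast as the class next below, at less distance than En1 had. The summed level of the 4 markers was 382 and 308 CPM in midbrain cells, 134 and 83.0 CPM in anterior epiblast cells, and at most 24.8 CPM in any of the other 5 classes. These levels did not go against the label. As the way the classes were assigned is not given in the sources used here, they are no independent support for it.

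**Figure D2:**
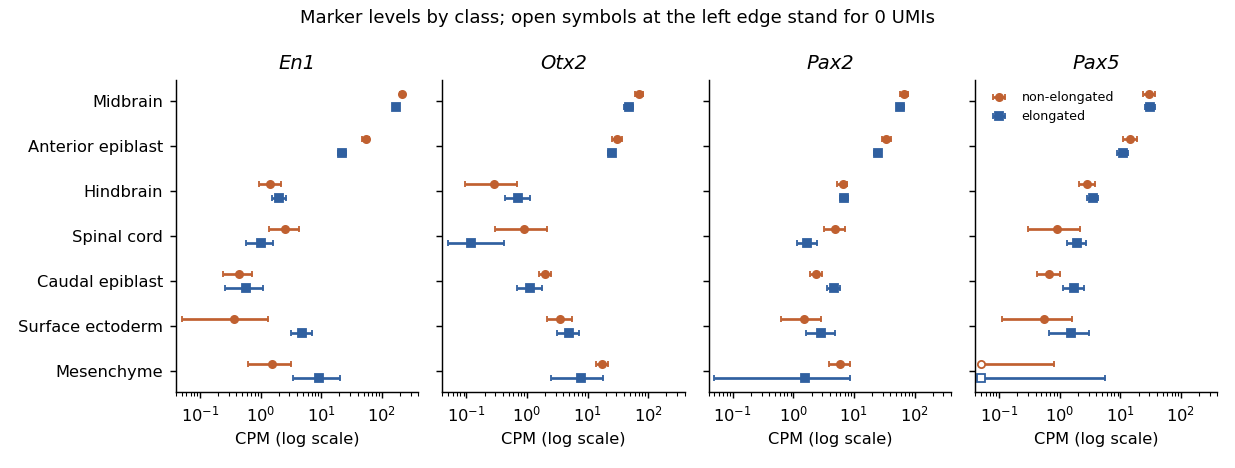
Level of En1, Otx2, Pax2 and Pax5 in each annotated class (CPM, log axis), with exact 95% Poisson intervals, for the non-elongated (circles) and elongated (squares) library. All 4 genes were highest in midbrain cells and next highest in anterior epiblast cells in both libraries.

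Among single cells the markers were unevenly detected. Each cell was thinned at random to 10000 UMIs so that cells of different depth could be compared, and no cell was shallower than that. En1 was detected in 78.4% of non-elongated and 57.0% of elongated midbrain cells after thinning (89.2% and 77.9% unthinned). Otx2 was detected in 41.2% and 19.8% (60.8% and 34.9% unthinned), Pax2 in 43.1% and 37.2% (68.6% and 69.8%), and Pax5 in 18.6% and 23.3% (47.1% and 55.8%). Free RNA in the droplets can give such detections, and its part was not tested. Hindbrain cells, which should lack Otx2, had it in 0.198% and 1.22% of thinned cells and En1 in 1.98% and 1.35%. Spinal cord cells had Otx2 in 1.13% and 0.197% and En1 in 1.13% and 0.986%. Surface ectoderm cells had Otx2 in 4.88% and 2.00% and En1 in 0.610% and 6.00%. Mesenchyme cells had Otx2 in 11.9% of non-elongated and 0 of 17 elongated cells, and En1 in 0.699% and in 1 of the 17. In anterior epiblast cells, thinned alike, En1 was detected in 26.7% and 9.60% and Otx2 in 24.2% and 14.6%.

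None of the 4 markers was detected in 8 of 102 thinned non-elongated midbrain cells (7.84%) and 21 of 86 elongated ones (24.4%). At full depth that left 1 and 8 cells without any marker. The same share was 40.8% and 60.6% in anterior epiblast and 89.9% and 88.5% in hindbrain cells. At least 3 of the 4 markers were found together in 23 non-elongated (22.5%) and 13 elongated (15.1%) midbrain cells. Of all thinned cells with at least 3 markers, those were 23 of 31 and 13 of 18, and the anterior epiblast class held 7 and 5 of the others. The typical midbrain cell held a median of 5 and 3 En1 UMIs at full depth.

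Further midbrain factors of the list used here were found at lower levels. The list has 10 genes, of which 4, the markers, had the mean of at least 5 CPM over the 14 sums that a comparison required, and 6 did not. En2, the second engrailed gene, was at 24.2 and 16.4 CPM in midbrain cells and 1.32 and 0.555 CPM in all other cells. Otx1, the close relative of Otx2, was at 11.6 and 3.48 CPM against 0.351 and 0.108 CPM. Lmx1b, a LIM homeodomain factor that acts at the isthmus, was at 12.6 and 7.27 CPM against 4.49 and 1.71 CPM, and Pax8 at 7.36 and 8.85 CPM against 1.26 and 2.36 CPM. Those 4 genes were higher in midbrain cells in both libraries. Dmbx1, a homeodomain factor of the dorsal midbrain, had 8 and 2 UMIs in all. Pax7, a factor of the dorsal neural tube, was at 6.31 and 2.21 CPM against 5.04 and 5.14 CPM, higher in the non-elongated and lower in the elongated library.

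Compared with all other day 6 cells, fewer of the compared genes were higher than lower in midbrain cells. Of 9069 genes compared, 54 (0.595%) were at least 2-fold higher and 137 (1.51%) at least 2-fold lower in midbrain cells in both libraries. The balance depended on the filter. Higher genes were 37.1% of those apart with a mean of at least 1 CPM, 28.3% with 5 CPM and 21.5% with 20 CPM. The filter mean includes the midbrain sums, so a gene found mainly in midbrain cells was compared only if high there. Ratios were taken on the log2 scale after adding 1 CPM, which understates the difference of low genes. The median log2 ratio over all compared genes was 0.02 and 0.00. Of the 4 compared midbrain factors, 4 were among the higher genes, with log2 ratios of 5.42 and 5.08 for En1, 3.78 and 3.31 for Otx2, 3.37 and 2.90 for Pax2, and 3.38 and 2.84 for Pax5. These 4 are the genes given as markers of the label and may have served to assign it, so their place is a description.

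The other genes highest in midbrain cells included a secreted signal, 2 regulators of transcription and several genes of other functions. Wnt1, the Wnt ligand of the isthmus, was at 53.6 CPM (153 UMIs) and 24.3 CPM (77 UMIs) against 2.09 and 4.22 CPM in all other cells. Lmo1, a LIM-only transcription cofactor, was at 37.2 and 35.7 CPM against 3.09 and 2.10 CPM. Nkx6-1, a homeodomain factor of the ventral neural tube, was at 31.9 and 27.8 CPM against 3.33 and 4.63 CPM. Both had log2 ratios above 2 in each library (3.22 and 3.57 for Lmo1, 2.93 and 2.36 for Nkx6-1). Chst2, a carbohydrate sulfotransferase, was at 51.5 and 54.7 CPM against 9.60 and 10.4 CPM. Ablim1, an actin-binding LIM protein, was at 42.8 and 59.1 CPM against 7.99 and 12.9 CPM, and Fbln2, an extracellular matrix protein, at 22.8 and 21.2 CPM against 3.89 and 4.54 CPM. For Chst2, Ablim1 and Fbln2 the 2 libraries gave nearly the same contrast with the pooled cells. Anterior epiblast cells lay nearer to midbrain cells than the pool did for these genes and Lmo1. With and without an Otx2 UMI they held Chst2 at 37.5 and 31.3 CPM (non-elongated) and 24.8 and 22.8 CPM (elongated). In that order Ablim1 was at 25.3, 19.1, 18.1 and 21.8 CPM. Fbln2 was at 9.36, 10.0, 5.92 and 10.6 CPM, and Lmo1 at 30.8, 7.82, 14.4 and 3.04 CPM.

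**Figure D3:**
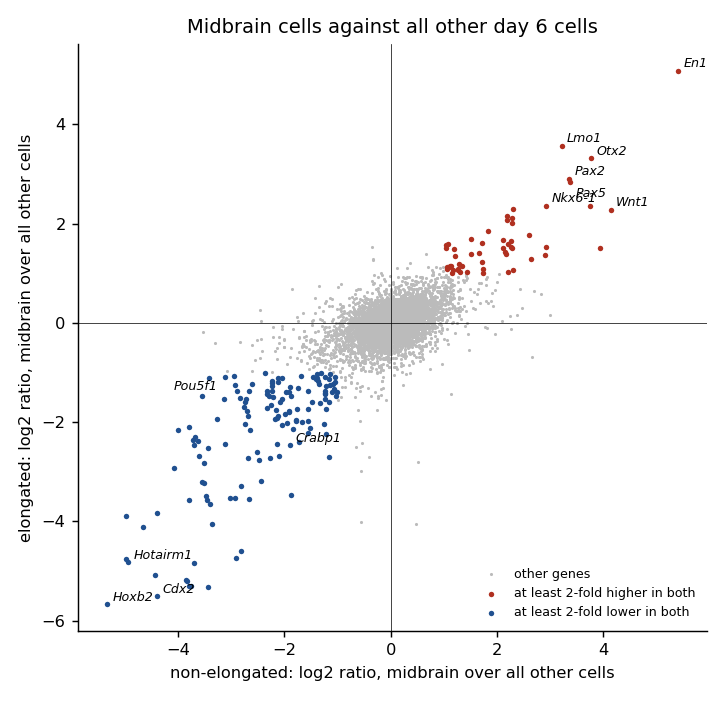
Each point is 1 of the 9069 compared genes, placed by its log2 ratio of midbrain over all other cells (CPM + 1) in the non-elongated (horizontal) and elongated (vertical) library. The 54 genes at least 2-fold higher in both are red and the 137 at least 2-fold lower in both are blue, with En1 at the upper right and Hoxb2 at the lower left.

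The genes lowest in midbrain cells were those of the posterior axis, as the plot of all compared genes shows at its lower left. Hoxb2, a Hox gene of the hindbrain, had 4 and 3 UMIs in all midbrain cells (1.40 and 0.948 CPM), against 96.6 and 97.8 CPM in all other cells. Hoxb1 was at 1.75 and 0.316 CPM against 58.6 and 43.7 CPM, and Hoxa2 at 0.351 and 0.948 CPM against 33.3 and 32.8 CPM. The RNAs Hotairm1, Hoxb3os and Hoxaas3, transcribed inside the Hox clusters, were also among the 10 lowest. With strand use not given, reads of these RNAs and of overlapping Hox genes cannot be told apart. Cdx2, a caudal homeodomain factor, had 11 UMIs in non-elongated midbrain cells (3.86 CPM, 8 of them in 1 cell) and 0 in elongated ones, where a count of 0 allows up to 3 UMIs. In all other cells Cdx2 was at 102 and 44.5 CPM, which makes it at least 47.0-fold lower in elongated midbrain cells. Wnt8a, a Wnt ligand of the early posterior embryo, was at 1.05 and 0.948 CPM against 64.0 and 27.7 CPM, and Gfra3, a receptor of the GDNF family, at 0.351 and 0.632 CPM against 27.6 and 22.3 CPM.

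By list, all 13 of the compared trunk Hox and Cdx genes (of 16) and 6 of the 9 compared hindbrain factors (of 12) were at least 2-fold lower in midbrain cells than in all other cells in both libraries, and none was higher. Their median log2 ratios were -3.48 and -4.05 for the trunk list and -3.46 and -3.56 for the hindbrain list. The summed level of the trunk list was 14.0 and 4.74 CPM in midbrain cells, and 338 and 398 CPM in all others. Among 10 compared genes of surface ectoderm and epithelium, such as Epcam (33.7 and 14.2 CPM against 217 and 66.6 CPM), 8 were lower. Of the 10 compared pluripotency and epiblast genes, 3 were lower, and of 7 compared genes of the retinoic acid pathway, which patterns the hindbrain and spinal cord, 3 were lower. These shares lie above the 1.51% of all compared genes. The lists were written with earlier results of these data known and are not independent evidence of their direction.

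Markers of other cell types were measured in the midbrain class as well. The 6 surface ectoderm markers summed to 236 and 188 CPM, against 4091 and 995 CPM in the surface ectoderm class and 476 and 166 CPM in hindbrain cells. The neuronal markers Tubb3, Dcx, Elavl3 and Map2 summed to 71.9 and 44.6 CPM, the highest of the 7 classes in the non-elongated library (anterior epiblast held 51.5 and 52.8 CPM), most of it Tubb3 (56.1 and 32.2 CPM), while Dcx had no UMI in non-elongated cells and 0.316 CPM in elongated cells. Six3, a forebrain factor, was at 3.16 and 1.90 CPM. The 3 neural crest markers summed to 1.05 and 2.85 CPM. The 6 mesenchyme markers summed to 33.7 and 25.3 CPM, against 259 and 308 CPM in the mesenchyme class. The part that other cells in the class may have in its differences was not tested.

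General neural genes did not set the class apart as a group. Of 13 compared neural progenitor genes, 1 was higher and 1 lower in both libraries than in all other cells. Sox9, a progenitor and later glial factor, was at 45.6 and 62.3 CPM against 21.5 and 20.4 CPM. Fabp7, a fatty acid binding protein of radial glia, was at 3.51 and 16.1 CPM against 20.2 and 37.7 CPM. Sox2, the pan-neural and pluripotency factor, was at 144 and 132 CPM against 73.1 and 146 CPM, which is higher in the non-elongated library alone. Hes5, a Notch effector, was at 42.4 and 43.0 CPM against 7.34 and 38.7 CPM, above the other cells in both libraries but past 2-fold in the non-elongated one alone. For both genes the level in midbrain cells was nearly equal in the libraries and the level in the other cells moved.

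None of the compared genes of S phase, of G2 and mitosis, of the FGF receptors, of the Notch pathway or of the dissociation stress list was 2-fold apart from all other cells in both libraries. For glycolysis and hypoxia none of 14 was past 2-fold, but 12 of 14 were above the other cells in both libraries, with median log2 ratios of 0.44 and 0.29. Over all compared genes, 3187 of 9069 were above the other cells in both libraries. Against anterior epiblast cells alone, 9 of the 14 were above and 5 below in both libraries, with medians of 0.08 and 0.13. Against hindbrain cells 8 were above and 2 below, with medians of 0.20 and 0.16. Of all 9069 genes, 3149 were above anterior epiblast cells and 3228 above hindbrain cells. Among Eph receptors and ephrins, the contact signals that keep segments of the neural tube apart, Efna5 was higher (81.3 and 69.5 CPM against 15.7 and 32.6 CPM). Epha4, a receptor of hindbrain segments, was lower (21.0 and 31.6 CPM against 80.2 and 90.1 CPM), with Epha2 and Epha5. Of 13 compared Wnt genes, Nkd1, a feedback inhibitor that Wnt signalling induces, was higher (44.5 and 49.0 CPM against 19.0 and 16.9 CPM) and Wnt5a lower (6.31 and 3.79 CPM against 18.0 and 9.82 CPM). Of the 18 genes of the list, 5 were above and 9 below the other cells in both libraries. Axin2, another feedback target, was at 31.2 and 37.3 CPM against 17.5 and 18.5 CPM. With 1 CPM added to each level it missed 2-fold in each library, narrowly in the elongated one.

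The isthmus signals and the feedback genes of FGF signalling gave a mixed picture. The list has 14 genes, of which 12 were compared, and 2 were at least 2-fold higher and 1 lower than in all other cells in both libraries. The higher genes were Wnt1 and Spry1, an inhibitor that FGF signalling induces, at 39.6 and 23.7 CPM against 13.9 and 11.2 CPM. The lower gene was Etv4, an ETS factor downstream of FGF, at 16.5 and 6.95 CPM against 59.2 and 29.7 CPM. Fgf8 was at 24.2 CPM (69 UMIs, 18.8 to 30.6) and 34.5 CPM (109 UMIs, 28.3 to 41.6) in midbrain cells. All other cells held 31.2 and 11.3 CPM of Fgf8, so midbrain cells were lower in the non-elongated and higher in the elongated library. Against hindbrain cells (16.6 and 8.49 CPM) and anterior epiblast cells (14.6 and 10.7 CPM), Fgf8 was higher in midbrain cells in both libraries.

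Other FGF ligands were rare in midbrain cells. Fgf17 had 2 and 8 UMIs and Fgf18 had 20 and 8 UMIs. Gbx2 was at 14.7 CPM (42 UMIs) and 20.9 CPM (66 UMIs) in midbrain cells against 33.5 and 33.3 CPM in all other cells. The feedback inhibitors Dusp6 (29.5 and 21.5 CPM against 56.5 and 36.9 CPM), Spry2 (56.8 and 66.7 against 57.8 and 48.0 CPM) and Il17rd (22.8 and 24.3 against 34.6 and 17.1 CPM) were within 2-fold of the other cells. Cnpy1, a gene tied to FGF signalling at the isthmus in fish, had 1 and 2 UMIs. Of 12 genes of the ventral neural tube and hedgehog list, 11 were in the table and 3 were compared, of which 2, Nkx6-1 and Lmo1, were higher. Of the 11, 8 were below the other cells in both libraries. The hedgehog receptor Ptch1 was within 2-fold of all other cells (22.4 and 27.8 CPM against 23.3 and 31.1 CPM), Foxa2 was at 0.351 CPM and 0, and Nkx2-2 and Olig2 had no UMI in midbrain cells. Of 12 compared dorsal genes, 3 were lower than in all other cells in both libraries, namely Pax3 (3.51 and 9.48 CPM against 19.5 and 39.1 CPM), Msx1 (17.9 and 17.4 against 49.0 and 39.3 CPM) and Rspo3. Wnt7b, a Wnt ligand that fell short of the level needed for comparison, was at 18.2 and 4.43 CPM in midbrain cells and 1.17 and 0.393 CPM in all others.

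The anterior epiblast and hindbrain classes lay closest to the midbrain class. With anterior epiblast 119 genes (1.31% of those compared) were at least 2-fold apart in the same direction in both libraries, and with hindbrain 147 (1.62%). With spinal cord there were 292 (3.22%), with surface ectoderm 297 (3.27%), with caudal epiblast 334 (3.68%) and with mesenchyme 557 (6.14%), the last resting on 17 elongated mesenchyme cells. In the authors' 30 deposited principal components, whose making is not given in the sources used here, the distance from the midbrain centre to the anterior epiblast centre was 15.7 and 14.1, and to the hindbrain centre 18.9 and 15.4. The 2 midbrain groups were 3.33 apart. Cell by cell, the nearest other class was anterior epiblast for 57 non-elongated and 56 elongated midbrain cells and hindbrain for 41 and 30, and spinal cord for 4 and 0.

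Against hindbrain cells all 4 compared midbrain factors were higher and 7 of 9 compared hindbrain factors, Hox genes among them, were lower. Of the 9069 genes 57 (0.629%) were higher and 90 (0.992%) lower in midbrain cells in both libraries. En1 led with log2 ratios of 6.46 and 5.83, then Otx2 with 5.81 and 4.82. Pcsk1n, an inhibitor of prohormone processing, was at 75.4 and 48.4 CPM against 14.1 and 4.85 CPM, but its exons overlap those of Eras on the opposite strand. Anterior epiblast cells held 87.2 and 62.7 CPM of Pcsk1n, which is no lower than midbrain cells. Lmo1 was at 0.754 and 1.80 CPM in hindbrain cells, and Wnt1 at 5.28 and 5.86 CPM.

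On the lower side, 7 of 9 compared hindbrain factors were at least 2-fold lower in midbrain than in hindbrain cells, with medians of -3.04 and -2.59 on the log2 scale. Hoxb2 was at 97.0 and 98.9 CPM in hindbrain cells, Hoxa2 at 37.1 and 41.2 CPM and Hoxb1 at 53.5 and 37.0 CPM. Crabp1, a cytosolic retinoic acid binding protein, was at 249 and 282 CPM in midbrain against 1977 and 2827 CPM in hindbrain cells (log2 ratios of -2.98 and -3.32). Its relative Crabp2 was at 280 and 263 against 599 and 822 CPM. They were the 2 of 7 compared retinoic acid pathway genes that were 2-fold lower in both libraries. Of the 10 Irx, Meis and Pbx factors, 4 were lower, among them Meis2, a Hox cofactor, at 35.1 and 52.5 against 212 and 240 CPM. Upp1, uridine phosphorylase, was at 6.31 and 4.11 against 95.2 and 44.4 CPM, and Zfp703, a zinc finger factor, at 7.01 and 5.37 against 48.0 and 59.3 CPM. Epha4 was at 128 and 137 CPM in hindbrain cells, 4 or more times its midbrain level.

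**Figure D4:**
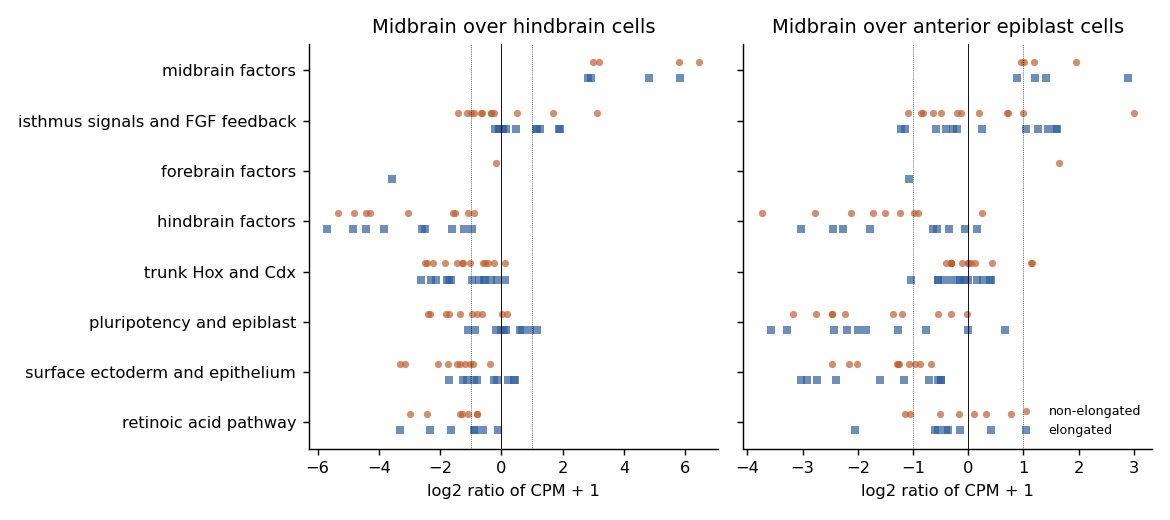
Log2 ratio (CPM + 1) of each compared gene of 8 lists, midbrain over hindbrain cells (left) and midbrain over anterior epiblast cells (right), for the non-elongated (circles) and elongated (squares) library; dotted lines mark 2-fold. Midbrain factors lie at the right of both panels, hindbrain factors lie furthest left against hindbrain, and pluripotency and epiblast genes lie to the left against anterior epiblast.

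Against anterior epiblast cells the contrast turned to genes of pluripotency and epithelium. Here 34 genes (0.375%) were higher and 85 (0.937%) lower in midbrain cells in both libraries. The plot of gene lists places most pluripotency genes below the line for 2-fold in this comparison, 7 of 10, with medians of -1.80 and -1.93. Pou5f1, the pluripotency factor Oct4, was at 24.9 CPM (71 UMIs) and 19.3 CPM (61 UMIs) in midbrain cells against 142 and 108 CPM in anterior epiblast cells. Utf1, a chromatin factor of pluripotent cells, was at 3.16 and 1.26 against 22.1 and 25.9 CPM, and Rhox5, a homeobox gene of early embryonic tissues, at 1.05 and 0.316 against 53.7 and 84.5 CPM. Pim2, a kinase, was at 24.5 and 25.9 against 172 and 123 CPM. The epithelial adhesion genes Epcam (154 and 114 CPM in anterior epiblast) and Cdh1 (5.96 and 3.79 CPM in midbrain against 27.2 and 24.4 CPM) were lower as well. Fst, which encodes the activin inhibitor follistatin, was at 14.7 and 27.5 against 99.4 and 135 CPM.

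The 4 midbrain markers separated the 2 classes less sharply. Against anterior epiblast En1 (log2 ratios of 1.95 and 2.89) and Pax5 (1.01 and 1.41) passed 2-fold in both libraries, while Otx2 (1.19 and 0.89) and Pax2 (0.95 and 1.22) did so in 1 library each. Fam181b, a gene of the embryonic brain, was at 106 and 60.1 CPM against 21.9 and 21.2 CPM in anterior epiblast cells. Zfhx4, a large zinc finger homeodomain factor, was at 30.5 and 22.1 against 6.07 and 4.99 CPM. Grb10, an imprinted adaptor of growth factor receptors, was at 55.4 and 31.3 against 18.2 and 6.96 CPM. Wscd1 (41.4 and 27.5 against 8.75 and 6.85 CPM), Pam, an enzyme that amidates neuropeptides (27.0 and 22.8 against 8.75 and 6.50 CPM), and Stox2 (41.7 and 34.5 against 17.0 and 14.0 CPM) completed the higher genes named by rule, with En1, Wnt1, Nkx6-1 and Fbln2. Of the hindbrain factors, 4 of 9 were still lower in midbrain cells than in anterior epiblast cells, and of the 13 trunk Hox and Cdx genes none.

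The midbrain class was not uniform, and some genes differed in the same direction between its cells with and without Otx2 in both libraries. This division was made after the values had been seen and uses detection of 1 gene in each cell at full depth. An Otx2 UMI was found in 62 of 102 non-elongated midbrain cells (60.8%) and in 30 of 86 elongated ones (34.9%). Of these, 13 and 8 cells had exactly 1 Otx2 UMI and 49 and 22 had 2 or more. The median depth was 26336.5 UMIs with and 27434 without Otx2 in the non-elongated library, and 44065.5 with and 32821.5 without in the elongated library, so the deeper cells were the Otx2 cells in the latter alone. In both libraries 24 of 9068 genes (0.265%) were at least 2-fold higher and 19 (0.21%) at least 2-fold lower in cells with Otx2.

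Wnt1, Tal2 and Lmo1 were higher in the cells with Otx2 in both libraries. Wnt1 was at 75.0 CPM with and 19.9 CPM without Otx2 in the non-elongated library, and at 55.8 and 3.67 CPM in the elongated library (log2 ratios of 1.86, 95% interval 1.26 to 2.64, and 3.61, 2.81 to 5.30). Tal2, a basic helix-loop-helix factor of the midbrain, was at 66.5 against 5.42 CPM and at 27.9 against 0.524 CPM, the last from 1 UMI. Lmo1 was at 53.9 against 10.8 CPM and at 72.6 against 11.5 CPM. The size of these ratios depended on the depth at which Otx2 was read: with cells divided by Otx2 after thinning, the log2 ratio in the non-elongated library was 0.89 for Tal2 and 0.81 for Lmo1, and in the elongated library it was 1.13 for Wnt1. In the elongated library 5 cells held 61.0% of the Wnt1 UMIs, 61.1% of the Tal2 UMIs and 51.3% of the Lmo1 UMIs. Otx1 had 31 UMIs with and 2 without Otx2 in the non-elongated library, and 10 and 1 in the elongated library, where they came from 3 cells with 7 UMIs in 1 cell. Fam181b was at 151 against 33.4 CPM and at 119 against 21.5 CPM, and Wls, the carrier that Wnt ligands need for secretion, at 108 against 34.3 CPM and at 90.1 against 41.4 CPM. Pcdh8, a protocadherin, was at 25.2 against 1.81 CPM and at 17.5 against 1.57 CPM.

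Gbx2 and Fgf15 were higher in the cells without Otx2 in both libraries. Gbx2 was at 4.01 CPM with and 31.6 CPM without Otx2 in the non-elongated library (7 and 35 UMIs). In the elongated library Gbx2 was at 3.19 and 32.5 CPM (4 and 62 UMIs). The log2 ratios were -2.70 (-4.40 to -1.79) and -3.00 (-5.27 to -1.92), and -2.29 and -2.80 with Otx2 read after thinning. Gbx2 itself was detected at full depth in 23 of 102 non-elongated and 29 of 86 elongated midbrain cells, so some cells had neither gene. After thinning, Otx2 and Gbx2 were found together in 1 non-elongated cell (0.98%, where the product of their shares gives 3.23%) and in 0 of 86 elongated cells (product 2.53%, upper limit from a count of 0 of 3.49%), which is too few to read at this depth. Fgf15, an FGF ligand of the early brain, was at 2.86 against 18.1 CPM and at 12.8 against 43.5 CPM. Few cells carried much of these counts. In the whole class 5 cells held 47.6% and 40.9% of the Gbx2 UMIs in the non-elongated and elongated library. For Fgf15 these shares were 72.0% and 37.4%, and for Fgf8 47.8% and 39.4%. The 25 non-elongated Fgf15 UMIs came from 11 cells, with 8 in 1 cell. Fgf8 was at 7.45 against 50.6 CPM in the non-elongated library (log2 ratio of -2.61, -3.76 to -1.88), and at 29.5 against 37.7 CPM in the elongated one, where the interval holds 0 (-0.34, -0.97 to 0.24). Without the 8 cells of a single Otx2 UMI the elongated ratio of Fgf8 was -1.32. Fgf18 had more UMIs in the cells with Otx2 in the non-elongated library (16 and 4) and as many in both in the elongated one (4 and 4), and Hoxaas3 had 14 and 0 UMIs with and without Otx2, then 7 and 2. Msx3 (4.01 against 12.7 and 3.19 against 20.9 CPM), a dorsal homeodomain factor, Vgf (7.45 against 25.3 and 5.58 against 20.9 CPM), a secreted neuropeptide precursor, and Ebf1 (7.45 against 20.8 and 9.57 against 28.8 CPM) followed the direction of Gbx2.

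**Figure D5:**
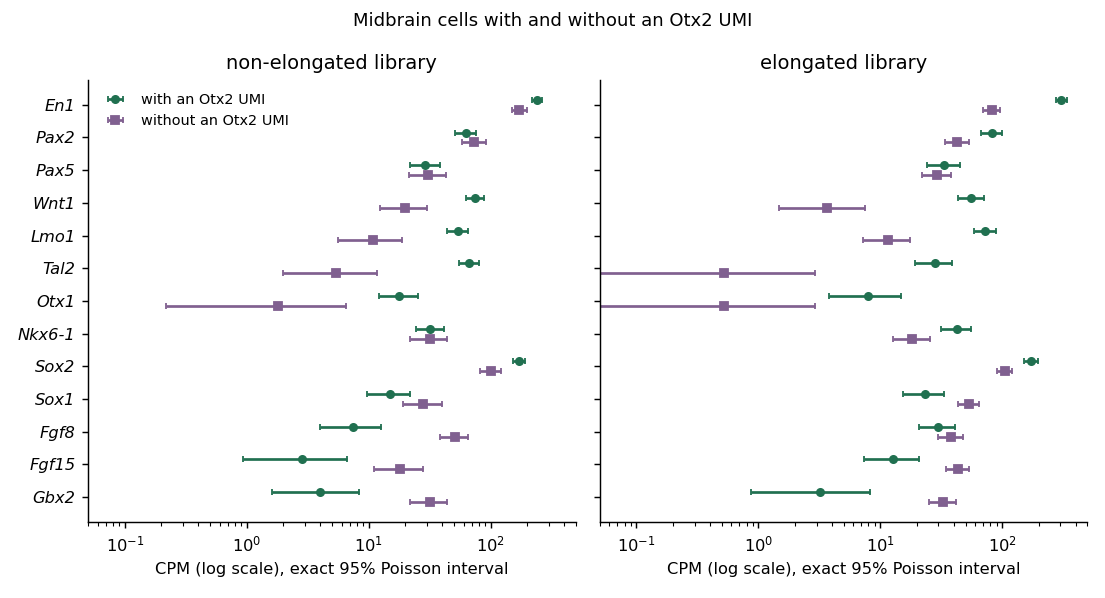
Levels of 13 genes (CPM, log axis) in midbrain cells with (green circles) and without (purple squares) an Otx2 UMI, in the non-elongated (left) and elongated (right) library, with exact 95% Poisson intervals. Wnt1, Lmo1, Tal2 and Otx1 lie higher in cells with Otx2, and Gbx2 and Fgf15 lie higher in cells without it in both libraries; the intervals of Pax5 overlap.

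The markers En1, Pax2 and Pax5 were found in the cells without Otx2 too. En1 was lower there in both libraries (log2 ratios of with over without of 0.48 and 1.88), and Pax2 in the elongated library (0.92). En1 was at 173 CPM in non-elongated and 82.2 CPM in elongated midbrain cells without Otx2, against 241 and 306 CPM in those with it. Pax2 was at 73.2 without and 62.4 CPM with Otx2 in the non-elongated library, and at 42.9 and 82.2 CPM in the elongated library. Pax5 was nearly equal on both sides in both libraries (29.2 with and 30.7 CPM without, then 33.5 and 29.3 CPM). Chst2 and Ablim1, higher in the whole class than in all other cells pooled, were also near equal on both sides. Their log2 ratios were -0.04 and 0.18 for Chst2 and 0.07 and -0.20 for Ablim1. Anterior epiblast cells with and without Otx2 held Chst2 at 37.5 and 31.3 CPM in the non-elongated and 24.8 and 22.8 CPM in the elongated library. Ablim1 was there at 25.3 and 19.1 CPM, then at 18.1 and 21.8 CPM. Hox genes were at or near 0 on both sides, with 4 and 0 UMIs of Hoxb2 in non-elongated and 1 and 2 UMIs in elongated midbrain cells with and without Otx2. Summed over the cells without Otx2, there were thus En1, Pax2, Pax5, Gbx2 (31.6 and 32.5 CPM) and Fgf8 (50.6 and 37.7 CPM) and almost no Hoxb2. Gbx2 and Fgf8 are genes of the hindbrain side of the border. In the whole class, however, 5 cells held 39.4% to 47.8% of the UMIs of each in each library. Anterior epiblast cells without Otx2 held Gbx2 at 37.8 and 55.3 CPM, no less than these cells. The name Midbrain for these cells is that of the annotation, and their side of the border was not tested.

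The progenitor factors Sox1 and Sox2 of the SoxB1 family lay on opposite sides of this division. Sox2 was at 171 CPM with and 100.3 CPM without Otx2 in the non-elongated library, and at 173 and 105 CPM in the elongated library. Sox1 was at 14.9 against 28.0 CPM and at 23.1 against 53.4 CPM. Some genes went opposite ways in the 2 libraries. Meg3, an imprinted noncoding RNA, was at 132 against 266 CPM in non-elongated and at 776 against 274 CPM in elongated midbrain cells. Egr2, a hindbrain segment factor, was at 9.74 against 22.6 CPM and at 31.9 against 6.81 CPM.

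Some of these genes went the same way in the anterior epiblast class, where 52 of 120 non-elongated and 57 of 198 elongated cells had an Otx2 UMI. There Tal2 was at 50.1 against 7.39 CPM and at 18.1 against 1.35 CPM with and without Otx2, and Lmo1 at 30.8 against 7.82 CPM and at 14.4 against 3.04 CPM. Gbx2 was at 14.3 against 37.8 CPM and at 29.6 against 55.3 CPM. The difference of Gbx2 there was short of 2-fold in the elongated library. Fgf15 was at 24.2 against 16.5 CPM and at 24.4 against 44.5 CPM, in opposite directions, and Fgf8 at 16.5 against 13.0 CPM and at 10.00 against 11.0 CPM. Wnt1 was at 9.36 against 3.04 CPM and at 17.8 against 4.06 CPM, higher with Otx2 as in midbrain cells. Its levels with Otx2 were below the 75.0 and 55.8 CPM of midbrain cells with Otx2. Sox2 was at 135 against 103 CPM and at 159 against 128 CPM in anterior epiblast cells. Sox1 was there at 14.9 against 23.5 CPM and at 18.5 against 42.1 CPM. Both went the same way as in midbrain cells, though the non-elongated interval of the Sox1 ratio held 0 (-1.38 to 0.03).

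Between the non-elongated and elongated libraries, 60 genes (0.662%) were at least 2-fold higher and 58 (0.64%) lower in non-elongated midbrain cells. In all other cells pooled, whose class mixture also differed, 113 (1.25%) were higher and 73 (0.805%) lower. Anterior epiblast cells alone had 34 (0.375%) higher and 25 (0.276%) lower, and hindbrain cells alone 98 (1.08%) and 41 (0.452%). Both of those classes held more UMIs than the midbrain class in each library. Trh, the thyrotropin-releasing hormone gene, had the highest ratio, at 56.5 CPM in non-elongated and 4.74 CPM in elongated midbrain cells, but 5 cells held 63.4% of its 161 UMIs. Tal2 was at 42.8 CPM (122 UMIs) and 11.4 CPM (36 UMIs), a log2 ratio of 1.82 (1.36 to 2.49), against 0.43 in all other cells. Wnt1 was at 53.6 and 24.3 CPM (1.11, 0.74 to 1.55). Cntnap2, a neuronal adhesion protein, was at 42.1 and 15.5 CPM, Maff, a small Maf factor, at 64.2 and 28.1 CPM and Epcam at 33.7 and 14.2 CPM. Fmr1nb, Slc9b1, Cpe and Vstm2b completed the 10 highest.

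On the other side, Fgf15 was at 8.77 CPM (25 UMIs) in non-elongated and 31.3 CPM (99 UMIs) in elongated midbrain cells, a log2 ratio of -1.73 (-2.53 to -1.19). Its ratio in all other cells was -1.09. Its exons overlap those of Gm26793 and Gm39119. Meg3 was at 184 and 473 CPM (-1.36, -1.51 to -1.22), with 0.48 in all other cells. Sox1 was at 20.0 and 41.4 CPM (-1.02, -1.53 to -0.59), close to its ratio of -1.36 in all other cells. Cyb5r1, a reductase, was at 8.06 and 23.7 CPM. Slc39a1, Gm26917, Aqp11, Hist1h2ae, Tatdn1 and Kif20b were the remaining genes of the 10 lowest. The 4 markers moved by less than 2-fold, with ratios of 0.33 for En1, 0.58 for Otx2, 0.19 for Pax2 and -0.05 for Pax5.

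The share of midbrain cells with an Otx2 UMI also differed, at 60.8% in the non-elongated and 34.9% in the elongated library, in spite of the lower depth of the former. Trh, Tal2, Wnt1 and Cntnap2, higher in the non-elongated library, were higher in its cells with Otx2 than in those without, and Fgf15 and Sox1, higher in the elongated library, were higher in cells without Otx2. Cyb5r1, higher in the elongated library, was at 6.30 CPM with and 10.8 CPM without Otx2, and at 16.7 and 28.3 CPM. Epcam and Fmr1nb, higher in the non-elongated library, ran against the share of Otx2 cells, since Epcam was at 27.5 CPM with and 43.4 CPM without Otx2 there and Fmr1nb at 23.5 and 45.2 CPM. Meg3, higher in the elongated library, was at 776 CPM with and 274 CPM without Otx2 there, and at 132 and 266 CPM in the non-elongated library. For Maff, Slc9b1, Cpe and Vstm2b the levels with and without Otx2 are not reported here. Within the cells with Otx2, Tal2 was still at 66.5 CPM in the non-elongated and 27.9 CPM in the elongated library, Wnt1 at 75.0 and 55.8 CPM, and Fgf15 at 2.86 and 12.8 CPM. Within the cells without Otx2, Fgf15 was at 18.1 and 43.5 CPM. The part of the cell mixture in the library differences was not tested.

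Elongated organoids of the second batch at day 6 and of days 7, 8 and 10 are in a separate table with a joint class, Mid/hindbrain. Cell filters are not given for either table, so levels can be set beside each other only loosely. In the second batch at day 6, En1 was at 2.62 CPM and Otx2 at 0.687 CPM over all 2402 cells. Over all cells of the day 6 table En1 was at 12.2 CPM in the non-elongated and 10.9 CPM in the elongated library, and Otx2 at 6.82 and 5.66 CPM. At least 3 of the 4 markers were found in 4 of 2396 cells of the second batch thinned to 10000 UMIs (0.167%, exact interval 0.0455 to 0.427), 6 cells being shallower. The shares were 31 of 2225 (1.39%, 0.949 to 1.97) in the non-elongated and 18 of 2076 (0.867%, 0.515 to 1.37) in the elongated library of the day 6 table. With 1 library each and cell filters not given, the spread between libraries behind these shares is unknown.

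In the Mid/hindbrain class of the later table En1 was at 2.73 CPM at day 6, and at 0.609, 0.554 and 0.551 CPM at days 7, 8 and 10. Otx2 was at 0.728 CPM at day 6 and at 1.25, 0.0150 and 0.344 CPM afterwards. All of these lie below the 71.2 and 47.4 CPM of Otx2 in midbrain cells of the day 6 table. Wnt1, by contrast, was at 2.08 CPM at day 6 and at 63.5, 31.3 and 71.9 CPM at days 7, 8 and 10. That rise was not particular to the joint class. Spinal cord cells of the same table had Wnt1 at 0.266 CPM at day 6 and at 36.3, 20.7 and 30.0 CPM afterwards. The joint class had Hoxb2 at 112 CPM at day 6 and 77.4 CPM at day 10, where midbrain cells of the day 6 table held 1.40 and 0.948 CPM.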

How the data were processed

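Cells of mouse neural tube organoids were profiled with the 10x Genomics 3′ kit. The values are counts of UMIs per gene and cell, deposited by the authors and made with Cell Ranger 3.1 on mm10, per the submitters' processing notes. The authors' deposited annotation gives each cell's class, library and mitochondrial percent, and scores on 30 principal components deposited by the authors. Cell filters, doublet treatment and the way classes were assigned are not given in the sources used here. In the day 6 table cells have 3502 to 7498 detected genes and at most 7.49% mitochondrial UMIs.

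Counts were summed per class and library and divided by the total (CPM). Genes with a mean of at least 5 CPM over the 14 sums were compared (9069 of 18144), with a pseudocount of 1 CPM. A gene was called apart at 2-fold in the same direction in both libraries. No test was run, since each condition has 1 library. Intervals are exact at 95% and cover counting error only, and a count of 0 allows 3 UMIs. Cells were thinned to 10000 UMIs for detection shares. Named genes were the midbrain and isthmus lists, the 10 highest and lowest per comparison with at least 20 CPM, and up to 4 members of other lists; genes of the Otx2 division and some others were chosen after their values were seen, and some genes that the rule names are not reported here. The calculation was checked on simulated counts. The members and lists were chosen with earlier results of these data known. Gene positions are from GENCODE vM21. Software was Python 3.11.15 with numpy 2.4.6, pandas 2.3.3 and scipy 1.17.1, and R 4.3.3 with edgeR 4.0.16, used for TMM factors alone. Alternatives were another pseudocount, other filters, other depths of thinning, TMM factors, the mean per cell, equal weight of classes and omission of 1 library or of cells, and, chosen after seeing the data, 2 other ways to divide cells by Otx2.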

Additional observations from a re-analysis of the deposited data

Results flagged for a closer look

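For 3 of the genes named between the libraries, midbrain cells and all other cells of the day 6 table moved in opposite directions, and these differences between the 2 contrasts were not tested. Wnt1 had a log2 ratio of non-elongated over elongated of 1.11 in midbrain cells (53.6 and 24.3 CPM) and of -0.76 in all other cells (2.09 and 4.22 CPM). Cpe, which encodes carboxypeptidase E, had 1.07 in midbrain cells (64.9 and 30.3 CPM) and -0.68 in all other cells (11.1 and 18.4 CPM). Vstm2b, whose exons overlap a gene on the opposite strand, had 1.04 in midbrain cells (23.8 and 11.1 CPM) and -1.13 in all other cells (3.48 and 8.84 CPM). The other cells differ between the libraries in class mixture, with caudal epiblast at 45.6% and 18.2% of cells, and the part of that mixture was not tested.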

How the results depend on the processing

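No paired analysis was possible because the 2 day 6 libraries compared share fewer than 2 replicate numbers. With a pseudocount of 5 CPM, 29 genes were higher and 76 lower against all other cells, 36 and 45 against hindbrain, 18 and 44 against anterior epiblast, and 10 and 8 between the libraries. With a mean of at least 1 CPM, 109 were higher against all other cells, 116 against hindbrain, 80 higher and 129 lower against anterior epiblast, and 187 and 177 between the libraries. With at least 20 CPM the counts were 14 and 51, 13 and 39, 9 and 31, and 14 and 8. Taking 1 library alone gave 69 to 209 higher and 183 to 337 lower genes against all other cells, 108 to 186 and 147 to 246 against hindbrain, and 84 to 125 and 153 to 178 against anterior epiblast, as fewer conditions must then be met. Counts stayed within 1.5 times under TMM factors, the mean per cell, equal weight of classes and omission of the cells with the most UMIs. Thinned to 5000 UMIs, En1 was detected in 51.0%, Otx2 in 30.4%, Pax2 in 24.5% and at least 3 markers in 7.84% of non-elongated midbrain cells, and Pax2 in 26.7%, Pax5 in 14.0% and at least 3 markers in 8.14% of elongated ones. Without thinning the non-elongated shares were 89.2% (En1), 60.8% (Otx2), 68.6% (Pax2), 47.1% (Pax5) and 58.8% (at least 3), and the elongated shares 77.9%, 34.9%, 69.8%, 55.8% and 47.7%. Of 1326 values of single genes under alternatives, 1136 moved by less than their counting interval, 190 moved further and 0 changed sign. The share that moved further was larger for some alternatives. It was 99 of 214 values with a pseudocount of 5 CPM, and 9 of 20 values of the Otx2 division with Otx2 read after thinning. Without cells of a single Otx2 UMI it was 1 of 20. When cells were divided by Otx2 after thinning, the ratio of Tal2 in the non-elongated library fell to 0.89, that of Lmo1 to 0.81 and that of Wnt1 in the elongated library to 1.13 (log2), and without cells of 1 Otx2 UMI that of Fgf8 in the elongated library was -1.32. Both alternatives were chosen after seeing the data.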
